A study of Arabidopsis thaliana with 39 samples.

Results

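The reads described here came from the right border side of the vector backbone of pROK2, the binary plasmid of the SALK collection of Arabidopsis T-DNA lines. They were the small RNA reads of line SALK_059379 whose midpoint lay at positions 10406 to 12883 of the plasmid and whose bases equalled the plasmid from first to last position. The interval begins with the right border repeat, at 10406 to 10430, and runs through the backbone up to the last base of the deposited sequence, 12883, a span of 2478 nt with the repeat included. Of the 25606 small RNA reads listed on pROK2, 21957 equalled the plasmid, and 1743 of these belonged to the interval, 7.94% of the exact reads on 19.2% of the plasmid. A further 238 listed reads had their midpoint in the interval but differed from the plasmid, 231 of them in 1 base, and were left out.

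The study sequenced RNA from whole rosette leaves of SALK_059379 (pROK2) and of a second line, SAIL_232, which carries the T-DNA of plasmid pCSA110. Per the labels, plants were kept at 21 °C under a 16 h day, whereas the study's methods give other conditions and state that the tissue came from pools of segregating plants, so that the plants of a pool need not all carry the same insertions. There was 1 small RNA library per line and no untreated or wild-type library among those analysed here, so no test between samples was possible and all comparisons below are between stretches of 1 plasmid within 1 library. The study describes the insertions of this line as arrays of T-DNA and backbone pieces. The number of inserted copies of each stretch was not measured here, so that a higher read density and a higher number of copies cannot be told apart.

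In Agrobacterium-mediated transformation, the protein VirD2 nicks the plasmid inside the border repeats, and the DNA between them, the T-DNA, is moved into the plant cell. The backbone outside the borders carries the genes and origins that the plasmid needs in bacteria and is not meant to be transferred, but it is often found in transgenic plants. In plants, Dicer-like proteins cut double-stranded RNA into short interfering RNAs (siRNAs). Those of 21 and 22 nt, products of DCL4 and DCL2, mainly guide ARGONAUTE1 to RNA, whereas those of 24 nt, products of DCL3, mainly guide ARGONAUTE4 and its relatives to DNA methylation, a pathway known as RNA-directed DNA methylation.

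The right border side had fewer reads per length than either of the other regions of the plasmid. It had 703 reads per kb (95% interval 671 to 737), against 1266 (1238 to 1295) on the left border side of the backbone, positions 1 to 6112, and 2906 (2855 to 2957) on the T-DNA, positions 6113 to 10405. Intervals of counts are exact Poisson intervals, and all intervals given here cover counting error only, since reads made by PCR without molecular identifiers are not independent molecules. The density was 0.556 times that of the left border side (0.527 to 0.585, exact conditional interval) and 0.242 times that of the T-DNA (0.230 to 0.255). With identical reads counted once, the right border side kept 807 distinct reads, or 326 per kb, against 477 per kb on the left border side and 910 per kb on the T-DNA, and the ratios moved to 0.682 and 0.358. Each distinct read of the right border side was seen 2.16 times on average, against 2.65 times on the left border side and 3.19 times on the T-DNA.

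The drop in reads fell on the first bases of the right border repeat. The last T-DNA base, 10405, was covered by 58 exact reads, the first base of the repeat by 43, the second by 6 and the last base of the repeat by 1. Altogether 44 exact reads touched the repeat (exact Poisson interval 32.0 to 59.1), of which 42 were on the minus strand. Most of them entered it by a single base. The 24 nt read at 10383 to 10406 on the minus strand was found 28 times and the 25 nt read at 10382 to 10406 on the same strand 9 times, so that 37 reads had their 5′ end at the first base of the repeat. Their midpoints lay in the T-DNA, and they are not members of the right border side.

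Few exact reads ran from the T-DNA past base 3 of the repeat, and none ran on into the backbone beyond it. The junction between bases 3 and 4 of the repeat, which is where VirD2 is known to nick, was crossed by 5 exact reads (1.62 to 11.7), 2 on the plus and 3 on the minus strand. They were 10386 to 10409 on the plus strand (1 read), 10393 to 10416 on the minus strand (2 reads), 10396 to 10419 on the minus strand (1 read) and 10404 to 10424 on the plus strand (1 read). No exact read spanned all 25 bases of the repeat, for which a read of at least 25 nt would be needed, a length that few reads had. A read from the T-DNA through the repeat into the backbone would have to be longer still, so its absence says little. The end of the repeat, between 10430 and 10431, was crossed by a single exact read, at 10410 to 10432 on the minus strand. With listed reads that differ from the plasmid included, 4 reads crossed it, and 6 crossed the junction between bases 3 and 4. For comparison, the 250 junctions between neighbouring bases after the repeat were crossed by a median of 4 reads (0 to 11), against a median of 59 (4 to 145) over the 250 junctions before it.

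**Figure D1:**
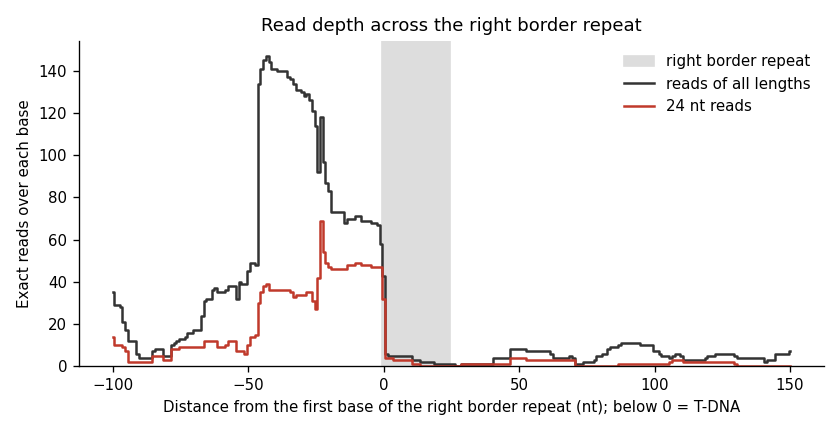
Number of exact reads over each base (y axis) by distance from the first base of the right border repeat in nt (x axis, T-DNA below 0), for reads of all lengths and for 24 nt reads, with the repeat shaded. Depth was 58 at the last T-DNA base, 43 at the first base of the repeat and 6 at the second, and did not pass 11 between the end of the repeat and 150 nt.

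Beyond the repeat, reads were sparse at first and denser further out. In windows of 250 nt counted from the first base of the repeat, the first window held 52 reads, or 208 per kb (155 to 273), which was 0.0720 times (0.0533 to 0.0955) the 2888 per kb of the T-DNA window on the other side of the border. The second window held 292 reads per kb (229 to 367). The third held 632 (537 to 739), and its interval did not overlap that of either window before it. The fourth, from 750 to 999 nt beyond the border, fell back to 240 (183 to 309). It was the window with the highest GC content of the interval, 69.2%, and it held 2 of the 4 stretches of at least 10 nt without any read.

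From 1000 nt on, every window but the last had more than 700 reads per kb. The fifth, sixth and seventh windows held 768 (663 to 885), 824 (715 to 945) and 856 (745 to 979) reads per kb, with intervals that overlapped each other. The eighth window, at 12156 to 12405 and 1750 to 1999 nt from the border, was the densest, with 489 reads or 1956 per kb (1786 to 2137). It alone held 28.1% of the reads of the right border side. Its density was 2.29 times that of the seventh, the next densest (1.94 to 2.70), and 9.40 times that of the first (7.06 to 12.8). The eighth window was picked as the densest from these same reads, which the intervals of these ratios do not take into account. The ninth window held 740 reads per kb (637 to 855) and the tenth, which is 228 nt long, 500 (412 to 601).

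Read density therefore went up with distance from the border, but not steadily. The 1978 nt after the first 500 nt held 1618 reads, or 818 per kb (779 to 859), and the first 500 nt held 125 reads (208 to 298 per kb), so that the density was 3.27 times as high (2.73 to 3.96). Spearman's rank correlation of density with distance was 0.58 over the 10 windows, which come from 1 library and adjoin each other, so it is a description. It was 0.72 for distinct reads. Without the densest window it was 0.58. The correlation of density with GC content over the same windows was -0.02.

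**Figure D2:**
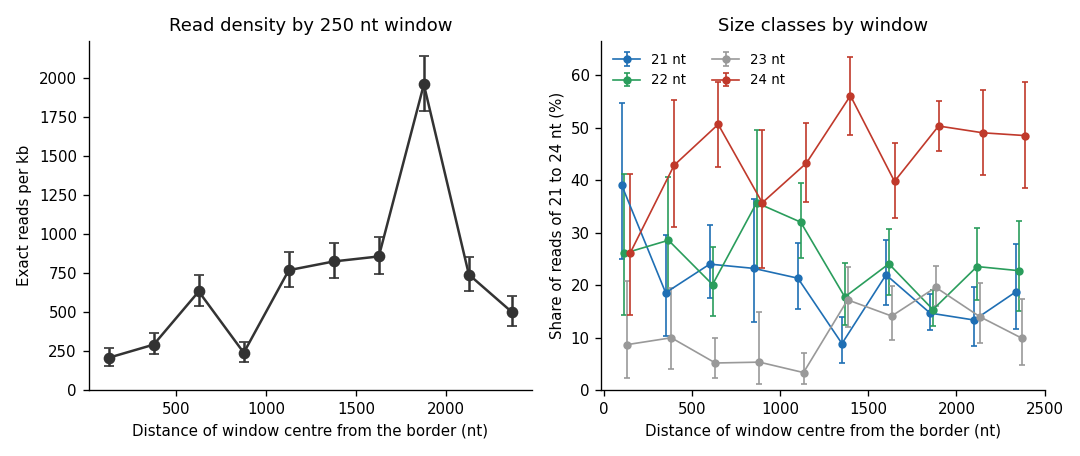
Left, exact reads per kb (y axis) in 10 windows of 250 nt, the last of 228 nt, by distance of the window centre from the border in nt (x axis), with exact Poisson 95% intervals. Right, share of each size class among reads of 21 to 24 nt in % (y axis) in the same windows, with exact binomial 95% intervals and points set slightly apart. Density was 208 reads per kb in the first window, 240 in the fourth and highest in the eighth, 1956, and the 24 nt share was lowest in the first window, 26.1%.

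Most reads had the sizes of siRNAs, and 24 nt was the most frequent length. Of the 1743 reads, 1582 (90.8%) had 21 to 24 nt, 100 had 16 to 20 nt, 46 had 25 to 29 nt and 15 had 30 nt or more, in a range of 16 to 45 nt. Among the reads of 21 to 24 nt, 24 nt reads made up 47.2% (44.7% to 49.7%, exact Clopper-Pearson interval), 22 nt reads 21.9% (19.9% to 24.1%), 21 nt reads 17.9% (16.0% to 19.9%) and 23 nt reads 13.0% (11.4% to 14.8%). The RNA had been cut from a gel at small sizes before sequencing, so that the library says nothing about longer RNAs.

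The size profile was nearer to that of the other backbone side than to that of the T-DNA. The 24 nt share of 47.2% compared with 49.9% (48.7% to 51.1%) on the left border side and 37.9% (37.0% to 38.8%) on the T-DNA. It exceeded that of the T-DNA by 9.28 percentage points (6.67 to 11.9, Newcombe interval), and under each of the 9 alternatives run it stayed above. The difference from the left border side, -2.75 points (-5.47 to -0.03), lay at the edge of its counting error. It was -0.18 points without the most frequent 5′ end of each region, and 2.78 points with identical reads counted once (-1.32 to 6.96), whereas it was -6.20 points (-8.76 to -3.63) with all listed reads and -4.01 points (-7.12 to -0.88) without the densest window, so that its size and direction depended on which reads were counted. The 23 nt share, 13.0%, was 11.3% (10.6% to 12.1%) on the left border side and 7.75% (7.27% to 8.25%) on the T-DNA. The 21 nt and 22 nt shares were 17.9% and 21.9%, against 15.3% and 23.5% on the left border side and 23.9% and 30.5% on the T-DNA.

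On few reads, the leading size of the first window was not that of the windows further out. The interval of its 24 nt share overlapped that of the second window. In the first window, 21 nt reads were the largest class, with 18 of 46 reads or 39.1% (25.1% to 54.6%), followed by 12 of 22 nt and 12 of 24 nt, 26.1% each (14.3% to 41.1%), and 4 of 23 nt. In every other window 24 nt reads were the largest class, except in the fourth, where 22 nt and 24 nt reads tied at 20 of 56 reads. The 24 nt share ranged over these windows between 35.7% (23.4% to 49.6%) in the fourth and 56.1% (48.5% to 63.5%) in the sixth. It was already 42.9% (31.1% to 55.3%) in the second window. It was 48.0% (45.4% to 50.6%) after the first 500 nt, against 36.2% (27.5% to 45.6%) within them, a difference of 11.8 points (2.41 to 20.4). That difference was not recomputed under the alternatives. The 24 nt share of the first window minus that of the T-DNA window next to the border was -13.1 points (-24.2 to 1.58). The rank correlation of the 24 nt share with distance was 0.42 over the windows, and -0.04 when reads were assigned by their 5′ end, so no steady change with distance was shown.

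By number of reads, all of the classes were densest in the eighth window. There the 24 nt reads reached 904 per kb, against 48 per kb in the first window, and the 21 nt reads 264 per kb, against 72. The 23 nt reads reached 352 per kb, against 16 in the first window. The 23 nt share of the eighth window, 19.6% (16.0% to 23.6%), exceeded that of the rest of the interval by 9.18 points (5.28 to 13.4). A single read species made up 32 of its 88 reads of 23 nt. That species, at 12200 to 12222 on the minus strand, was the most frequent read of the whole right border side.

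Both strands of the backbone gave reads, with a modest excess of the plus strand, which is the strand as written in the deposited plasmid sequence. There were 987 plus and 756 minus reads, a plus share of 56.6% (54.3% to 59.0%), against 55.4% on the left border side and 54.0% on the T-DNA. Among the size classes the plus share was 61.4% (57.8% to 64.9%) for 24 nt and 59.7% (53.7% to 65.5%) for 21 nt reads, whereas 22 nt reads, with 50.4% (45.0% to 55.8%), and 23 nt reads, with 48.1% (41.1% to 55.1%), were balanced within their intervals. The excess came largely from 2 windows. The eighth had a plus share of 64.8% (60.4% to 69.1%) and the tenth of 71.9% (62.7% to 79.9%). The ninth, between them, had an excess of the minus strand, with a plus share of 42.2% (35.0% to 49.6%), and the intervals of the other 7 windows included 50%. Without the eighth window the plus share was 53.4% (50.6% to 56.2%). With identical reads counted once, the plus share of the whole interval was 54.4% (50.9% to 57.9%).

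Over shorter distances the strands alternated in patches. Of the 50 bins of 50 nt, 28 held at least 20 reads. In 5 of these at least 80% of the reads were on the plus strand, and in 3 at least 80% were on the minus strand. The most one-sided was the bin at 1950 to 1999 nt from the border, the outer end of the densest window, with 99 plus reads and 1 minus read. The bin at 1000 to 1049 nt had 5 plus and 58 minus reads, and that at 1100 to 1149 nt 53 plus and 8 minus. Identical reads were all counted in these bins, so frequent reads weighed on them. The minus-strand reads at 11423 to 11446 (22 reads) and 11423 to 11444 (15 reads) lay in the former bin. The plus-strand read at 11505 to 11526 (18 reads) lay in the latter. The fullest bin, at 1750 to 1799 nt, was mixed, with 94 plus and 61 minus reads.

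**Figure D3:**
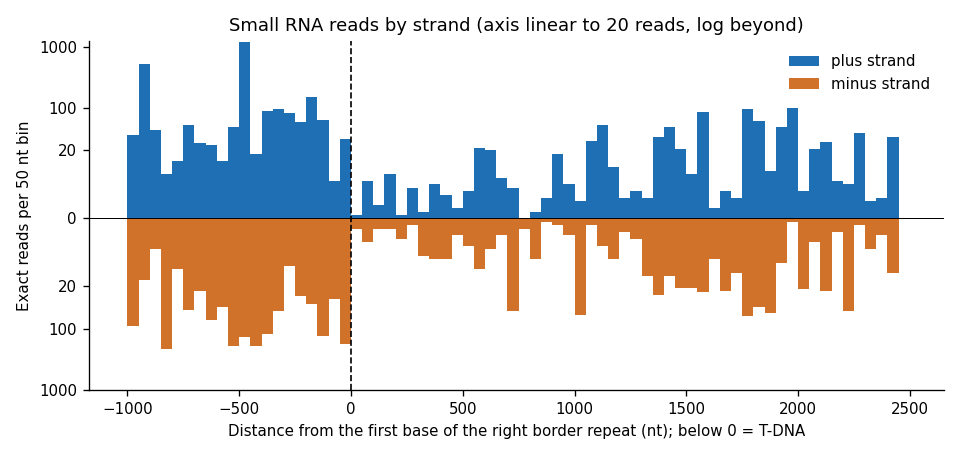
Exact reads per bin of 50 nt (y axis, linear to 20 reads and logarithmic beyond) on the plus strand (upward bars) and the minus strand (downward bars), by distance from the first base of the right border repeat in nt (x axis, T-DNA below 0, border dashed). The first backbone bin held 1 plus and 3 minus reads, the bin at 1950 to 1999 nt 99 plus reads and 1 minus read, and the last bin none.

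The reads were spread over many positions rather than piled up at a few. The 1743 reads began at 669 different 5′ ends, and 531 of the 807 distinct reads (65.8%) were seen once. The 10 most frequent reads held 210 reads, 12.0% of the total. Exact reads covered 2392 of the 2478 positions, or 96.5%, with a median depth of 10 reads, and 24 nt reads alone covered 86.9%. Of the 8 stretches without an exact read, 4 had at least 10 nt. They were 10701 to 10721 (21 nt), 11204 to 11219 (16 nt), 11340 to 11367 (28 nt) and 12868 to 12883 (16 nt). The last of them lies where the circular plasmid was cut open to write its sequence. A read across the join could not be listed there, but a read wholly inside the sequence could. The bin at 2450 to 2477 nt from the border, which includes this stretch, held 0 plus and 0 minus reads. The cause of this gap was not tested.

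Of the 669 5′ ends, 9 held at least 1% of the reads each, together 203 reads or 11.6%, and all lay more than 1000 nt from the border. The foremost was 12222 on the minus strand, with 32 reads, all of 23 nt. On the plus strand, 11972 had 27 reads, all of 21 nt, and its neighbour 11971 had 23 reads, all of 22 nt. Both of these reads ended at 11992, so they shared their 3′ end, and around them the depth was the highest of the interval, 105 reads at 11975. The other 6 included 11446 on the minus strand with 22 reads, all of 24 nt. On the plus strand were 11775 with 21 reads of 24 nt and 12176 with 21 reads of 22 to 24 nt. Also on the plus strand, 11838 had 20 reads, 19 of them of 24 nt, and 12229 had 19 reads, 15 of them of 24 nt. The plus-strand end 11505 had 18 reads, all of 22 nt. In each of these 6 ends 1 or 2 lengths held most of the reads.

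The most frequent reads of each size were found at some of the same places. Of 21 nt, they were 11972 to 11992 on the plus strand (27 reads, exact Poisson interval 17.8 to 39.3), 11105 to 11125 on the minus strand (14) and 12228 to 12248 on the plus strand (14). Of 22 nt, they were 11971 to 11992 on the plus strand (23 reads, 14.6 to 34.5), 11505 to 11526 on the plus strand (18) and 11423 to 11444 on the minus strand (15). Of 24 nt, they were 11423 to 11446 on the minus strand (22 reads, 13.8 to 33.3), 11775 to 11798 on the plus strand (21) and 11838 to 11861 on the plus strand (19). The leading 21 nt read held 9.54% of its class, and the leading 24 nt read 2.95% of its class. In each class, the interval of the leading read overlapped that of the last of the 3.

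Reads of different size often shared a 3′ end and seldom a 5′ end. The minus-strand reads at 11423 to 11444 and 11423 to 11446 were 1 such pair, since the lower position is the 3′ end of a minus-strand read. Of the 347 reads of 22 nt, 212 (61.1%, 55.7% to 66.3%) ended at the 3′ end of a 24 nt read of the same strand, and 24 (6.92%, 4.48% to 10.1%) began at the 5′ end of one. The values were 53.7% for 3′ ends and 15.9% for 5′ ends among 21 nt reads, and 56.3% and 17.0% among 23 nt reads. For the 3 classes together, 57.4% (54.0% to 60.8%) shared the 3′ end and 12.4% (10.3% to 14.9%) the 5′ end. The order was the same on the left border side, with 58.9% and 28.1%, and on the T-DNA, with 71.1% and 41.5%. Counting identical reads once gave 35.0% for 3′ ends and 14.5% for 5′ ends on the right border side.

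**Figure D4:**
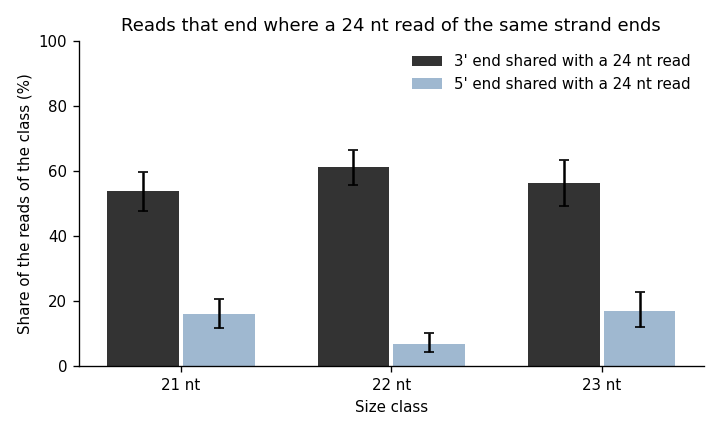
Share of the 21, 22 and 23 nt reads of the right border side (x axis) whose 3′ end or 5′ end is also that of a 24 nt read of the same strand, in % of the class (y axis), with exact binomial 95% intervals. In each class the 3′ share, between 53.7% and 61.1%, was above the 5′ share, between 6.92% and 17.0%.

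By number of reads, A was the most frequent 5′ base of 24 nt reads and C that of 21 and 22 nt reads, whereas C led in all 3 classes when identical reads were counted once. In plants this base guides the loading of ARGONAUTE proteins, with AGO4 known to favour A, AGO1 U and AGO5 C. Of the 24 nt reads, 42.8% (39.2% to 46.4%) began with A, against 25.01% A at their other positions, and 31.1% (27.8% to 34.6%) began with C, against 25.1%. Of the 21 nt reads, 40.3% (34.5% to 46.3%) began with C, against 23.6% at other positions, and 24.4% (19.5% to 29.8%) with U, against 19.8%. The 22 nt reads also had C most often, 35.4% (30.4% to 40.7%). A first base of G was less frequent than G at other positions in 21, 22, 23 and 24 nt reads, for instance 13.0% against 32.6% in 24 nt reads.

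These shares were set in part by the most frequent reads. The 5′ C share of 21 nt reads was above the 22.2% of the left border side by 18.1 points (12.0 to 24.4) and above the 20.3% of the T-DNA by 19.9 points (14.2 to 25.9). With identical reads counted once, the difference was 6.51 points (-2.003 to 15.7) from the left border side and 11.4 points (3.32 to 20.2) from the T-DNA. The 5′ A share of 24 nt reads exceeded that of the left border side by 10.4 points (6.56 to 14.3) and that of the T-DNA by 4.69 points (0.90 to 8.55). Counting identical reads once gave 24 nt reads a 5′ A share of 32.1% (26.5% to 38.0%) and a 5′ C share of 34.3% (28.7% to 40.3%), beside a C share of 33.8% (25.9% to 42.5%) in 21 nt and 32.1% (25.1% to 39.8%) in 22 nt reads, so that the classes then did not differ in their leading base. For 5′ A of 24 nt reads, the differences were -3.26 points (-9.43 to 3.30) from the left border side and -0.04 points (-6.07 to 6.39) from the T-DNA.

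Dicer products leave as duplexes whose 3′ ends overhang by 2 nt, so a plus-strand read can be paired with a minus-strand read of the same length that begins 2 nt before it. This offset did not stand out. There were 12 such pairs of distinct 24 nt reads, which ranked 3 among the 21 offsets from -10 to 10 nt. The other offsets had a median of 8.5 pairs (4 to 16). For 22 nt there were 5 pairs, against a median of 3 (1 to 7), and for 21 nt 1 pair, against a median of 2 (0 to 5).

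Some reading frames of the interval were given the names of genes of bacterial plasmids. A 137-codon reading frame on the minus strand, 10451 to 10864, shared at least 20 residues in a row with tetA, the tetracycline efflux pump of plasmid RK2, over 82 codons, so that it holds the beginning of that gene only. It had 115 reads, or 278 per kb, 57 of them (49.6%, 40.1% to 59.0%) on its coding strand. A 113-codon frame that overlaps it on the plus strand, 10508 to 10849, matched none of the proteins searched. A 225-codon frame on the plus strand, 10868 to 11545, was given the name tetR, the repressor of tetA, which is read in the opposite direction. It had 364 reads, or 537 per kb, with 50.5% (45.3% to 55.8%) on the coding strand. A 123-codon frame on the plus strand, 12368 to 12739, was given the name traJ, whose protein binds the transfer origin of RK2. It had 278 reads, or 747 per kb, with 57.6% (51.5% to 63.4%) on the coding strand. The protein sequences behind these names were recalled and not taken from an annotation of the plasmid. The names tetR and traJ were given after the translated frames had been seen, and no length of shared run is reported for them. Each of these genes was thus matched by reads of both strands, in near equal numbers on tetA and tetR.

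Part of the interval is also present in pCSA110. The stretch from 11717 to 12094, 378 nt long, is identical in pCSA110, where it lies in the opposite direction. It had 365 reads in SALK_059379, or 966 per kb, of which 151 of the 321 reads of 21 to 24 nt (47.0%) had 24 nt. The first 54 nt of the interval and the 74 nt from 10461 to 10534 are shared as well, and held 7 and 19 reads. The densest window lay outside the shared stretches, and its outer end reached into the frame named traJ. No read of the right border side matched pROK2 at another place, and none matched the TAIR10.1 genome, each a count of 0 of 1743 reads. The assignment to the interval was thus unique among the sequences searched. The study had already checked the mapped reads against TAIR10, so the 0 for TAIR10.1 may not be independent of that check.

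The circular plasmid continues from its last listed base into position 1, the outer end of the left border side. The last window before the join held 500 reads per kb (412 to 601), against 421 reads, or 1684 per kb (1527 to 1853), in the first 250 nt after it. The plus strand share was 71.9% (62.7% to 79.9%) in the last window and 78.6% (74.4% to 82.4%) after the join. The 24 nt share was 48.5% (38.4% to 58.7%) in the last window and 50.5% (45.3% to 55.7%) after the join.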

How the data were processed

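Each line had 1 small RNA library listed, from rosette leaves. The study's methods say that small RNA libraries were sequenced in duplicate, on more than a single lane. The deposited tables do not separate lanes or duplicates. According to the study's methods and processing notes, the authors trimmed adapters, mapped reads to the plasmid with Bowtie2 2.3.0 and the Geneious aligner at zero mismatches, checked the mapped reads against TAIR10 for off-target matches and applied no normalization. Bowtie 0.12.7 is also named, and the sources used here do not say which aligner made the table. The deposited table lists each read by strand, start and end. Reads were counted here as its entries, with no scaling to library size, since the total number of sequenced reads was not known.

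Reads that equalled the plasmid were assigned by midpoint, the start plus the end divided by 2 and rounded down. The listed bases run along the plus strand, so strand was taken from the table. The left border repeat was the 25 nt stretch most like the right border repeat, with 4 differing bases. Positions count from 1. Intervals (scipy 1.17.1) were exact Poisson, Clopper-Pearson, conditional binomial and, for differences of shares, Newcombe, at 95%. No p-value was computed, since there was 1 library. Windows, the 3 most frequent reads per size, 5′ ends with at least 1% of the reads, border reads and reading frames of at least 100 codons were named. Frames were compared with tetA, trfA, nptIII, insA and insB, of which tetA was found in the interval. The names tetR and traJ were given later. These members and lists were chosen with earlier results of these data known. The interval formulas were tested on simulated independent counts, a setting without the repeated reads of these data. The alternatives counted identical reads once, used all listed reads, removed the most frequent 5′ end, multiple matches or matches to TAIR10.1, began after the repeat, assigned reads by 5′ end, changed the size range or denominator, and moved or resized windows. Leaving out the densest window was added after seeing the data. No plasmid sequence is printed.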

Additional observations from a re-analysis of the deposited data

Results flagged for a closer look

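Both results below come from data that the comparisons above do not use. RNA-seq of the same line listed 18 aligned pieces in the interval, of which 14 had 10 to 12 bases. The other 4 had 130 bases each and were on the plus strand, and 1 of the 4 equalled the plasmid. Of these, 3 lay within the frame named tetR, at 11007 to 11136, 11119 to 11248 and 11271 to 11400. They had 1, 1 and 0 bases that differed from the plasmid. The other piece, at 10378 to 10507, spanned the whole right border repeat, with 9 differing bases. The RNA-seq library is 1 sample, and its read number was not compared with that of the small RNA library.

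In the small RNA of SAIL_232, 52 exact reads (38.8 to 68.2, exact Poisson interval) lay on the pCSA110 copy of the 378 nt shared stretch. The copy of the shared stretch of 54 nt held 0 exact reads, and that of the shared stretch of 74 nt held 3. Of the 52 reads, 37 had 21 to 24 nt, among them 9 of 24 nt and 9 of 21 nt. The libraries were not scaled to each other, so these counts are not compared with the 365 reads of SALK_059379.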

How the results depend on the processing

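With identical reads counted once, the density ratio to the left border side was 0.682 and that to the T-DNA 0.358, the rank correlation of density with distance was 0.72, and the 24 nt share difference from the left border side turned to 2.78 points. With all listed reads, the ratio to the left border side was 0.511, that share difference -6.20 points and the rank correlation of the 24 nt share 0.58. Without reads at more than 1 place, the ratio to the T-DNA was 0.255. Without the densest window, the ratios were 0.445 and 0.194 and the plus strand share 53.4%. The rank correlation of density was 0.70 in windows of 500 nt and 0.70 in windows shifted by 125 nt, and that of the 24 nt share was 0.70 in windows of 500 nt and -0.042 when reads were assigned by their 5′ end. The causes of these shifts were not tested. The density ratios stayed below 1 under all alternatives, between 0.445 and 0.682 to the left border side and between 0.194 and 0.358 to the T-DNA. The 24 nt share difference from the T-DNA stayed between 7.25 and 10.4 points. No paired analysis was possible because each line has 1 small RNA library. Depth limits the windows with few reads, of which the first held 52, the fourth 60 and the second 73.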
